A study of Mus musculus with 31 samples.

Results

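Glutathione and NRF2 target genes were followed here as a group of 10 named genes out of the 39179 genes in the raw count table: Slc7a11, Gclc, Gclm, Gsr, Txnrd1, Gstm1, Gstm2, Gsta4, Nqo1 and Hmox1. Members were chosen by name, as the entries whose gene symbol equalled one of these names, and each name matched 1 gene. All 10 passed the filter on low counts, a CPM (the count scaled to the library total) of at least 0.5 in at least 3 libraries, in the tumor fit, in the culture fit and in the fit of both together.

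The study asked what glucocorticoids (GC) do to melanoma and whether the glucocorticoid receptor of the cancer cells is needed for it, using tumors in mice and cultures of the same cells. RNA was read by 3′ end sequencing (QuantSeq) in 31 libraries of 8 groups. The cells were the mouse melanoma line 20967, generated on a C57BL/6 background that carries the Nras+LSL-G12D allele and Tyr::CreERT2+/o, a Cre recombinase expressed from the tyrosinase promoter. "Parental" cells were this line, and "GRKO" cells were derived from it by CRISPR editing of Nr3c1, the gene of the glucocorticoid receptor.

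Both kinds of cells were injected into the skin of wild type C57BL/6 mice, so the hosts kept their own receptor and every tumor holds host cells too. Tumor-bearing mice received either cetraben cream as control or clobetasol propionate 0.05% ointment, a potent synthetic glucocorticoid, 3 times weekly. The 4 tumor groups were parental control, parental GC, GRKO control and GRKO GC, with 5 tumors in each. Cultures were kept for 48 h with the solvent DMSO or with clobetasol, giving 3 parental DMSO, 2 parental GC, 3 GRKO DMSO and 3 GRKO GC cultures, all with the same date in their library names. The clobetasol dose of the cultures is labelled 10 µM as the treatment and 1 µM in the library names, so both are given. The GRKO line came from a single clone, so loss of the receptor and other differences of that clone cannot be told apart. Ages of the mice are not given in the sources used here. Library totals ran from 15528066 to 26386770 counts in tumors and from 14441166 to 22463188 in cultures. A level of 0 therefore allows up to 3 counts, or 0.108 to 0.216 CPM in tumors and 0.139 to 0.213 CPM in cultures, which covers counting error only.

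Nr3c1 was read first as a check of the labels. Its level was 62.8, 57.6, 43.9, 55.9 and 50.5 CPM in the 5 parental control tumors, 54.2, 23.5, 48.4, 36.4 and 49.6 in parental GC tumors, 20.3, 26.7, 31.2, 33.6 and 23.3 in GRKO control tumors and 47.3, 21.4, 57.7, 31.7 and 46.9 in GRKO GC tumors. In culture it was 33.9, 30.6 and 36.3 CPM with DMSO and 40.6 and 34.2 with GC in parental cells, against 25.8, 21.6 and 16.6 and 21.4, 22.4 and 12.9 in GRKO cells. Every GRKO culture lay under every parental culture, but the transcript was present in all, and counts of transcript ends do not check the loss of the protein. Tsc22d3, a gene known to be induced by the receptor, was 14.8, 10.8 and 15.7 CPM in parental DMSO and 119.6 and 116 in parental GC cultures, against 16.6, 18.7 and 19.8 in GRKO DMSO and 21.1, 14.4 and 16.8 in GRKO GC cultures. GC and DMSO cultures did not overlap in parental cells and did overlap in GRKO cells. In GRKO tumors, where host cells also contribute, Tsc22d3 was 59.9, 44.3, 70.9, 94.1 and 61.8 CPM with control and 247, 244, 205, 166 and 237 with GC, again without overlap.

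The cultures were also compared with markers of the melanocyte lineage. Of 10 such genes 6 had any count in culture, Mitf was the most abundant, and Sox10, Dct, Mlana and Tyr stood at 0 in all 11 cultures. The summed level of the list was 10.6, 12.1 and 12.9 CPM in parental DMSO, 10.1 and 12.6 in parental GC, 5.18, 3.24 and 4.32 in GRKO DMSO and 5.38, 5.52 and 5.62 in GRKO GC cultures. Tyr was also at 0 in every tumor, so its 0 does not set the cultures apart. In tumors, which hold host cells too, the summed list had means of 72.7 CPM in parental control and 86.8 in parental GC. The means were 65.5 CPM in GRKO control and 57.7 in GRKO GC tumors. The pigment cell markers that define a melanocyte were thus absent or low in cultures of the line labelled as melanoma, and the cells are called by their line and genotype here.

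Some tumors stood apart from the others of their group over all genes. The mean chi-square per gene between the counts of a pair of libraries was 28.2 to 31.6 among parental GC tumors 1, 3 and 5, and 108 to 214 in pairs that held parental GC tumor 2 or 4. Among GRKO GC tumors 1, 3 and 5 it was 44.8 to 52.4, and 90.3 to 203 in pairs that held GRKO GC tumor 2 or 4. GRKO control tumor 4, which had the highest count total of its group, gave 234 to 411 with the others, which gave 68.8 to 146 among themselves. The calls in tumors are therefore also given without these libraries, in fits of the parental or the GRKO pair left out that were chosen after seeing the data.

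NRF2, the product of Nfe2l2, is a transcription factor that KEAP1 marks for degradation in unstressed cells, and that accumulates when electrophiles or oxidants modify KEAP1. It then drives genes that make glutathione from cysteine, recycle its oxidized form, attach it to foreign and reactive molecules, and reduce quinones. In melanoma, as in other tumors, these genes are known for protecting cells against oxidative stress and against some drugs.

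The count of members that passed the test was small in tumors and larger between genotypes in culture. A gene was called when edgeR's quasi-likelihood test gave a Benjamini-Hochberg (BH) adjusted p under 0.05 over all genes tested and the fold change was at least 1.5. GC in parental tumors called 0 of 10 members, where 0.779% of all genes were called; 4 members had an unadjusted edgeR p under 0.05, as had 14.1% of all genes, and DESeq2 called 2 members and 2.37% of all genes. GC in GRKO tumors called 1 of 10, Gstm2, against a background of 6.42%. The difference between these GC effects called 1 of 10, again Gstm2, against 0.195%. That background was itself unsteady, with 31 genes called by edgeR, 817 by DESeq2, and 0 to 1284 by edgeR with 1 tumor left out. With parental GC tumors 2 and 4 left out, edgeR called 0 members and 0 genes for this difference, and with GRKO GC tumors 2 and 4 left out, 1 member and 634 genes. GRKO against parental control tumors called 1 of 10, also Gstm2, against 2.25%, and GRKO against parental GC tumors called 0 of 10 against 0.634%, with 5 members and 11.4% of all genes at an unadjusted edgeR p under 0.05, and 0 members and 1.82% of all genes called by DESeq2. These tumor comparisons share groups, so their calls are not independent.

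In culture, GC in parental cells called 1 of 10 members, Gclc, against 0.878% of all genes. GC in GRKO cells called 0 of 10 members and 0 of 12525 genes, 0.0%, by edgeR; at an unadjusted p under 0.05 these were 1 and 237, and DESeq2 called 0 of either. The difference of the GC effects in culture called 1 of 10, Gclc, against 0.295%. GRKO against parental cells called 3 of 10 with DMSO (2 higher, 1 lower) against 8.22%, and 5 of 10 with GC (3 higher, 2 lower) against 5.55%. Between growth in mice and in culture, 4 of 10 members were called, all lower, in parental control tumors against parental DMSO cultures (46.7% of all genes). For the GRKO line 8 of 10 were called, 7 lower and 1 higher (54.8%). In the lower direction alone, 16.2% of all genes were called for the parental line and 20.6% for the GRKO line.

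Gclc, which encodes the catalytic subunit of glutamate-cysteine ligase, the rate-limiting enzyme of glutathione synthesis, was the member that edgeR called for GC in culture. Its level was 21.2, 24.8 and 23.5 CPM in the 3 parental DMSO cultures and 71.1 and 63.8 in the 2 parental GC cultures. In GRKO cultures it was 42.5, 44.5 and 39.0 with DMSO and 39.6, 38.8 and 38.5 with GC. Both parental GC cultures lay far above all DMSO cultures, whereas the GRKO groups overlapped with each other and fell between the parental groups. Gclc rose by 1.53 on the log2 scale with GC in parental cells (SE 0.13, edgeR BH-adjusted p = 0.000174), and its log2 fold change in GRKO cells was −0.08 (SE 0.12, edgeR BH-adjusted p = 0.976). The difference between these effects was 1.61 (SE 0.18, edgeR BH-adjusted p = 0.00275) and was called with each of the 11 cultures left out in turn, with values from 1.53 to 1.68.

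The genotypes therefore stood in opposite order with and without GC. With DMSO, Gclc was higher in GRKO than in parental cultures by 0.85 log2 (SE 0.12, edgeR BH-adjusted p = 0.00126). With GC it was lower in GRKO cultures, with a log2 fold change of −0.76 (SE 0.13, edgeR BH-adjusted p = 0.00524). Without parental GC culture 1 the latter was −0.68 and no longer passed (edgeR BH-adjusted p = 0.0763). Leaving out 1 of the 2 parental GC cultures leaves a single one, which is then assumed to vary like the other groups.

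In tumors Gclc levels were 22.5, 14.3, 12.9, 15.9 and 9.84 CPM in parental control and 15.9, 22.0, 16.7, 9.72 and 14.3 in parental GC tumors, and 10.4, 22.4, 12.1, 9.55 and 25.7 in GRKO control and 8.76, 12.3, 11.4, 15.2 and 16.5 in GRKO GC tumors. All 4 tumor groups overlapped. The log2 fold change with GC was 0.06 in parental and −0.29 in GRKO tumors (edgeR BH-adjusted p = 0.957 and 0.590). From highest to lowest the group means were 67.5 ± 5.21 (SD, n = 2) in parental GC, 42 ± 2.79 (n = 3) in GRKO DMSO, 39.0 ± 0.558 (n = 3) in GRKO GC and 23.1 ± 1.82 CPM (n = 3) in parental DMSO cultures. Tumors followed, with 16.0 ± 7.48 in GRKO control, 15.7 ± 4.42 in parental GC, 15.1 ± 4.71 in parental control and 12.8 ± 3.06 CPM in GRKO GC tumors (n = 5 each). Of the 7 pairs of neighbours in that order 5 overlapped, the exceptions being parental GC with GRKO DMSO cultures and GRKO GC with parental DMSO cultures.

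Gclm encodes the modifier subunit of the same ligase. In parental cultures it stood at 46.2, 60.5 and 51.7 CPM with DMSO and 44.8 and 37.9 with GC, and in GRKO cultures at 67.5, 62.8 and 73.0 with DMSO and 63.6, 82.1 and 78.4 with GC. Parental GC cultures were under all DMSO cultures, and every GRKO culture was above every parental one. With GC, Gclm was higher in GRKO than in parental cells by 0.89 log2 (SE 0.17, edgeR BH-adjusted p = 0.0103). It did not pass without parental GC culture 1 (1.01, edgeR BH-adjusted p = 0.0518) or 2 (0.77, edgeR BH-adjusted p = 0.142). With DMSO the genotype difference was 0.35 (edgeR BH-adjusted p = 0.185), and the GC effect in parental cells was −0.36 (SE 0.17, edgeR BH-adjusted p = 0.607).

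Tumor levels of Gclm were much lower, 9.84, 9.83, 13.5, 8.86 and 7.82 CPM in parental control and 11.7, 15.3, 7.82, 12.9 and 10.3 in parental GC tumors. They were 7.36, 5.72, 5.28, 10.7 and 13.7 CPM in GRKO control and 12.2, 11.7, 14.1, 16.5 and 13.7 in GRKO GC tumors. GRKO GC tumors tended to the upper end, but the highest GRKO control tumor lay within their range. The log2 fold change with GC was 0.71 in GRKO tumors (SE 0.28, edgeR BH-adjusted p = 0.121) and 0.22 in parental tumors (edgeR BH-adjusted p = 0.779). Without GRKO control tumor 5, the highest of its group, the value in GRKO tumors passed at 0.95 (edgeR BH-adjusted p = 0.0458). In order, mean levels were 74.7 ± 9.79 in GRKO GC, 67.8 ± 5.13 in GRKO DMSO, 52.8 ± 7.25 in parental DMSO and 41.4 ± 4.93 CPM in parental GC cultures. Then came 13.6 ± 1.88 in GRKO GC, 11.6 ± 2.80 in parental GC, 9.97 ± 2.15 in parental control and 8.56 ± 3.59 CPM in GRKO control tumors (SD, n = 5 each). The GRKO culture groups overlapped with each other and the tumor groups with their neighbours, and the other neighbours in that order did not overlap.

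**Figure D1:**
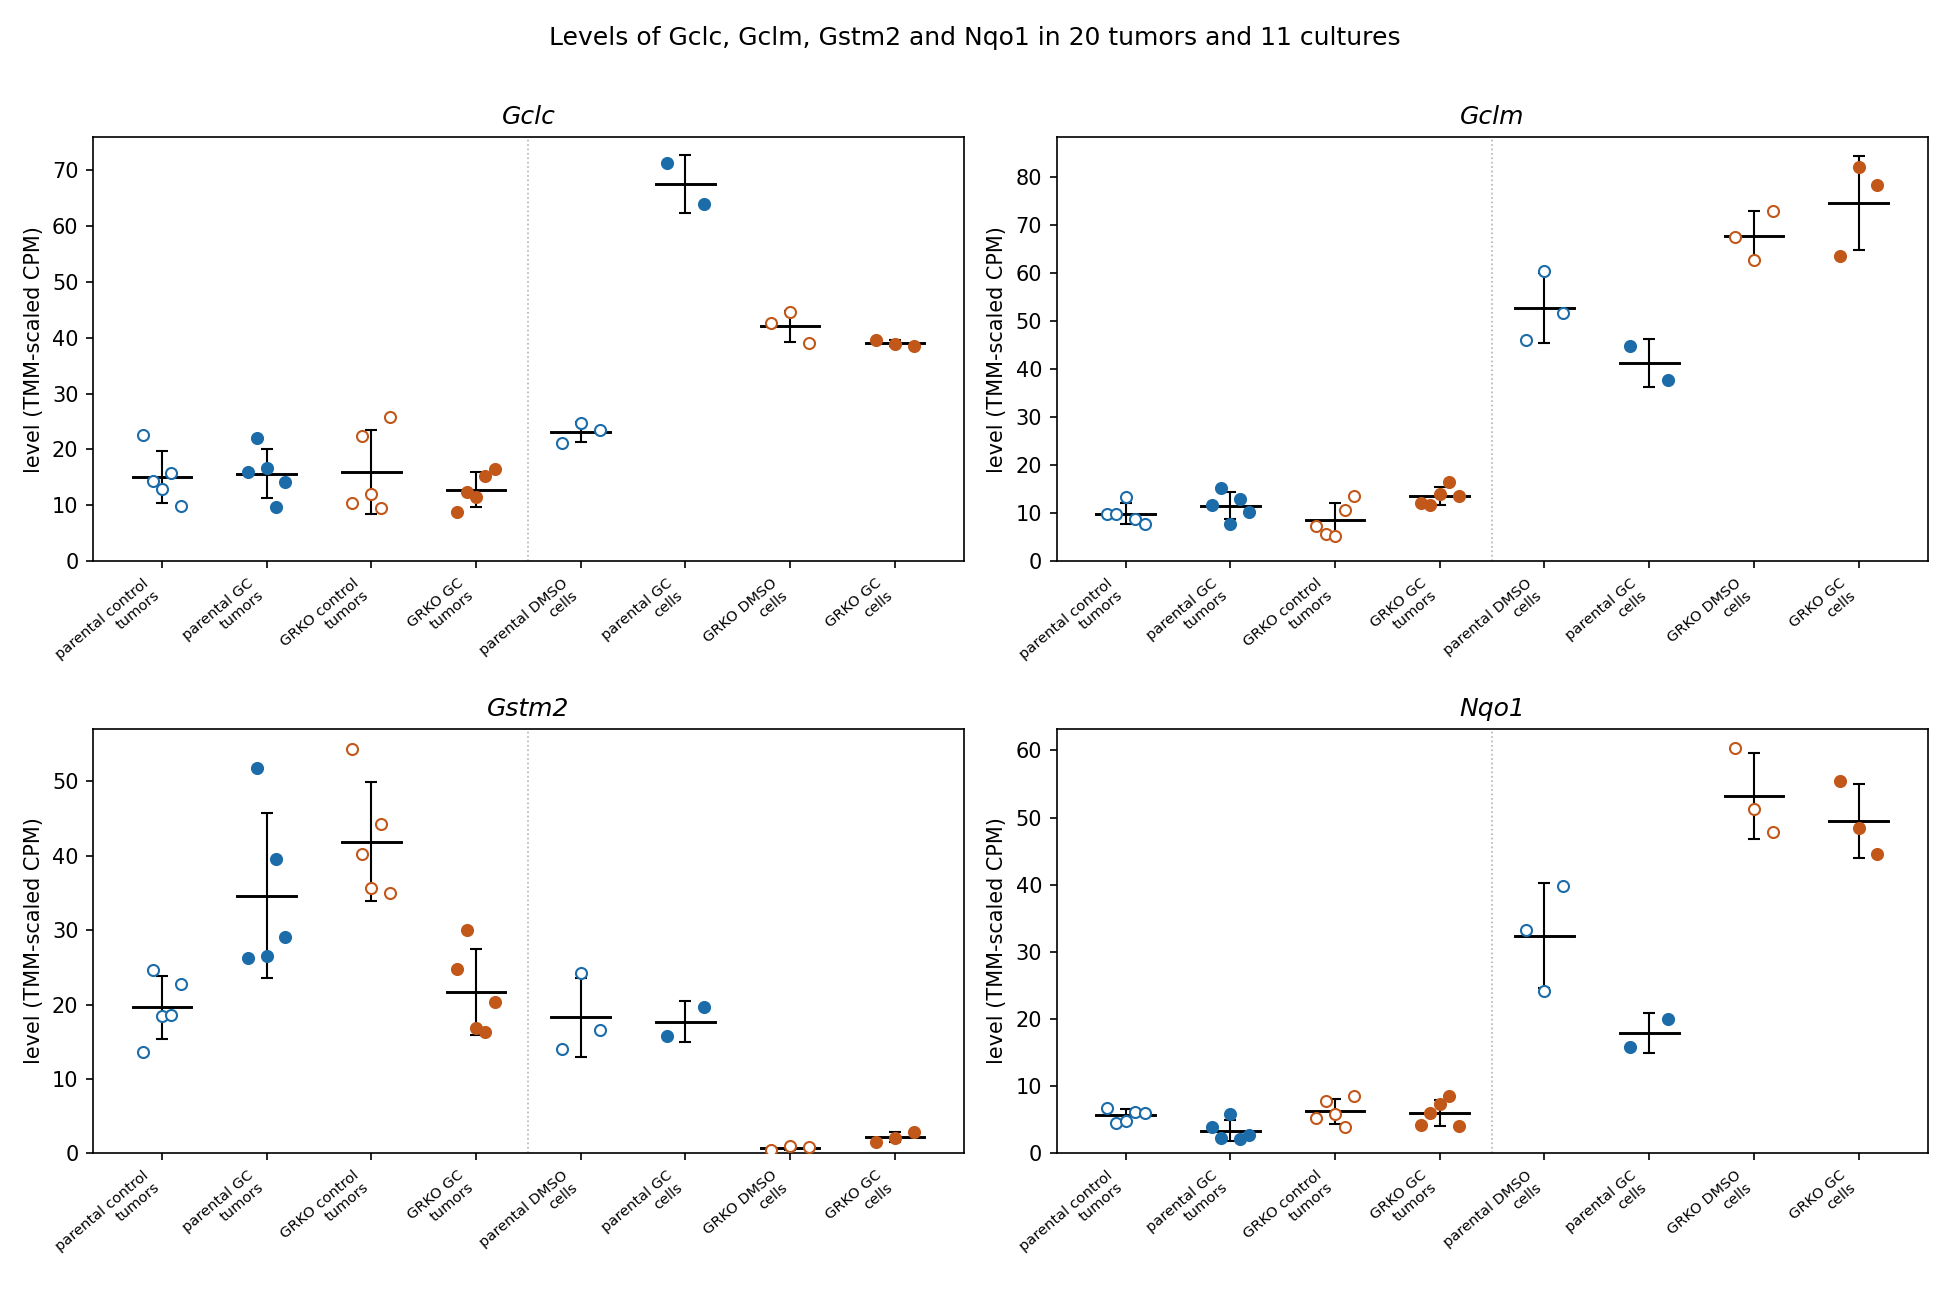
Levels of Gclc, Gclm, Gstm2 and Nqo1 in CPM (vertical axes) in every library of the 8 groups (horizontal axes), with open points for control or DMSO, filled points for GC, blue for parental and orange for GRKO, and bars for the mean ± SD. Gclc reached 71.1 and 63.8 CPM in the parental GC cultures, and Gstm2 lay under 3 CPM in all 6 GRKO cultures but at 16.3 CPM or more in all GRKO tumors.

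Slc7a11, the cystine importer subunit xCT that supplies cysteine for glutathione, was low and variable. In tumors it was 2.27, 5.76, 4.63, 8.10 and 6.70 CPM in parental control, 7.88, 1.31, 5.64, 3.51 and 4.15 in parental GC, 5.84, 3.03, 4.00, 10.9 and 2.07 in GRKO control and 4.71, 3.35, 5.81, 0.981 and 3.02 in GRKO GC. In cultures it was 4.12, 1.69 and 5.21 CPM in parental DMSO, 3.76 and 4.17 in parental GC, 5.71, 8.48 and 4.10 in GRKO DMSO and 4.62, 3.58 and 1.75 in GRKO GC. Every pair of neighbouring groups overlapped, from 6.10 ± 2.22 (SD, n = 3) in GRKO DMSO cultures, through 5.49 ± 2.21 in parental control, 5.16 ± 3.47 in GRKO control and 4.50 ± 2.45 in parental GC tumors. The lower means were 3.96 ± 0.292 in parental GC cultures, 3.67 ± 1.80 in parental DMSO cultures, 3.57 ± 1.83 in GRKO GC tumors and 3.32 ± 1.45 CPM in GRKO GC cultures. It was called in none of the 12 edgeR comparisons; the GC log2 fold change was −0.30 in parental tumors (SE 0.50), −0.48 in GRKO tumors and −0.85 in GRKO cultures (edgeR BH-adjusted p = 0.837, 0.586 and 0.976).

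Of the recycling enzymes, Gsr encodes glutathione reductase, which returns oxidized glutathione to its reduced form. It was 5.99, 3.29, 3.77, 4.08 and 7.57 CPM in parental control and 3.78, 0.957, 3.11, 0.673 and 1.76 in parental GC tumors. In GRKO tumors the order was the other way round, 0.577, 4.61, 3.12, 2.86 and 0.671 CPM with control and 3.65, 1.70, 5.14, 3.98 and 10.3 with GC. In both genotypes the control and GC tumors overlapped. The GC log2 fold change was −1.28 in parental (SE 0.59, edgeR BH-adjusted p = 0.321) and 1.11 in GRKO tumors (SE 0.59, edgeR BH-adjusted p = 0.246). The difference of −2.39 did not pass (SE 0.83, edgeR BH-adjusted p = 0.130).

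Gsr in cultures was uneven within groups: 4.65, 5.33 and 4.61 CPM in parental DMSO, 10.4 and 3.89 in parental GC, 8.09, 20.6 and 4.04 in GRKO DMSO and 27.3, 5.09 and 4.75 in GRKO GC. A single culture of each GRKO group, DMSO culture 2 and GC culture 1, stood far above its group. Mean levels ran from 12.4 ± 12.9 in GRKO GC, 10.9 ± 8.65 in GRKO DMSO and 7.15 ± 4.61 CPM in parental GC cultures to 4.96 ± 3.25 in GRKO GC tumors, 4.94 ± 1.79 in parental control tumors and 4.86 ± 0.406 CPM in parental DMSO cultures. GRKO control tumors, 2.37 ± 1.73, and parental GC tumors, 2.06 ± 1.35 CPM, were lowest, and all neighbours overlapped. Gsr was called lower in GRKO control tumors than in GRKO DMSO cultures, by −2.20 log2 (SE 0.66, edgeR BH-adjusted p = 0.00561), although the ranges overlapped. That call was lost without GRKO DMSO culture 2 (−1.36, edgeR BH-adjusted p = 0.114).

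Txnrd1 encodes the cytosolic thioredoxin reductase, which keeps thioredoxin reduced. It was 138, 141 and 139 CPM in parental DMSO and 109 and 105 in parental GC cultures, against 206, 161 and 162 in GRKO DMSO and 174, 187 and 170.2 in GRKO GC cultures. All GRKO cultures were above all parental ones, parental GC cultures were under parental DMSO cultures, and GRKO DMSO culture 1 stood above the others of its group. With GC, GRKO was higher than parental by 0.76 log2 (SE 0.14, edgeR BH-adjusted p = 0.00608), but not past the threshold without parental GC culture 1 (0.79, edgeR BH-adjusted p = 0.0600) or 2 (0.73, edgeR BH-adjusted p = 0.0783). With DMSO the genotype difference was 0.33 (edgeR BH-adjusted p = 0.115), and the GC effect in parental cells was −0.39 (SE 0.13, edgeR BH-adjusted p = 0.361).

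In tumors Txnrd1 was 66.2, 47.4, 56.7, 55.1 and 46.8 CPM in parental control, 54.6, 46.4, 47.2, 45.8 and 49.7 in parental GC, 49.1, 65.5, 63.5, 40.9 and 89.4 in GRKO control and 59.5, 46.8, 72.7, 77.2 and 57.3 in GRKO GC. These groups overlapped throughout, with GC log2 fold changes of −0.16 in parental and 0.05 in GRKO tumors, neither called. The order of means was 177 ± 8.93 in GRKO GC, 176 ± 25.8 in GRKO DMSO, 139 ± 1.52 in parental DMSO and 107 ± 2.98 CPM in parental GC cultures. Tumors followed with 62.7 ± 12.3 in GRKO GC, 61.7 ± 18.6 in GRKO control, 54.5 ± 7.95 in parental control and 48.8 ± 3.60 CPM in parental GC. GRKO cultures overlapped with each other and tumor groups with their neighbours, while the other 3 neighbouring pairs did not.

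Among the glutathione S-transferases, which attach glutathione to electrophiles, Gstm2 was the member that separated the tumor groups. Its level was 13.7, 24.6, 18.5, 18.6 and 22.8 CPM in parental control and 26.3, 51.9, 26.5, 39.5 and 29.0 in parental GC tumors. In GRKO tumors it was 54.4, 40.3, 35.6, 44.3 and 34.9 with control and 24.8, 30.1, 16.8, 16.3 and 20.4 with GC. Parental GC tumors all lay above parental control tumors, and GRKO GC tumors all lay under GRKO control tumors, so the direction was opposite in the 2 genotypes. In GRKO tumors Gstm2 fell by 0.92 on the log2 scale with GC (SE 0.24, edgeR BH-adjusted p = 0.0243). In parental tumors the log2 fold change was 0.82 (SE 0.24), which did not pass by edgeR (BH-adjusted p = 0.112) and passed by DESeq2 (0.83, BH-adjusted p = 0.0370). The difference between the GC effects, parental minus GRKO, was 1.75 (SE 0.34, edgeR BH-adjusted p = 0.0330). GRKO control tumors were also above parental control tumors, by 1.08 (SE 0.24, edgeR BH-adjusted p = 0.0268), whereas GRKO against parental GC tumors gave −0.67 (edgeR BH-adjusted p = 0.258).

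The Gstm2 values depended on which tumors were included. With parental GC tumors 2 and 4 left out, the log2 fold change with GC in parental tumors was 0.45 (edgeR BH-adjusted p = 0.764), and the difference between the GC effects was 1.37 and did not pass (edgeR BH-adjusted p = 0.176). With GRKO GC tumors 2 and 4 left out, Gstm2 fell by 0.99 in GRKO tumors (edgeR BH-adjusted p = 0.0299), and the difference was 1.81 (edgeR BH-adjusted p = 0.0254). Without GRKO control tumor 4 all 3 Gstm2 calls remained, at −0.91 for GC in GRKO tumors, 1.74 for the difference and 1.07 for genotype in control tumors (edgeR BH-adjusted p = 0.0187, 0.0162 and 0.0121).

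These Gstm2 calls sat close to the threshold. The fall in GRKO tumors did not pass without GRKO control tumor 1 (−0.80, edgeR BH-adjusted p = 0.0736), GRKO GC tumor 3 (−0.83, edgeR BH-adjusted p = 0.0796) or GRKO GC tumor 5 (−0.91, edgeR BH-adjusted p = 0.0613). The difference between genotypes in control tumors did not pass without parental control tumor 1 (0.97), 3 (1.06) or 4 (1.06) or GRKO control tumor 1 (0.96) or 2 (1.08), with edgeR BH-adjusted p from 0.0560 to 0.0738. The difference of the GC effects passed without 7 of the 20 tumors in turn and not without the other 13, with values from 1.54 to 1.89 and edgeR BH-adjusted p from 0.0162 to 0.0886. It did not pass without parental control tumor 1 (1.64), 3 (1.72), 4 (1.72) or 5 (1.81), or without parental GC tumor 2 (1.54), 4 (1.69) or 5 (1.80). The same held without GRKO control tumor 1 (1.63) or 2 (1.75), and without GRKO GC tumor 1 (1.80), 3 (1.66), 4 (1.66) or 5 (1.73). DESeq2 gave the difference a BH-adjusted p of 0.000366.

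Marker levels of other cell types moved in part with Gstm2 in the tumors. Skeletal muscle markers (8 of 8 with counts, Acta1 most abundant, none at 0 throughout) summed to 458, 399, 411, 374 and 389 CPM in parental control, 634, 289, 353, 488 and 412 in parental GC, 503, 502, 648, 646 and 334 in GRKO control and 300.1, 378, 394, 265 and 279.7 in GRKO GC tumors. Endothelial markers (7 of 7, Kdr most abundant, none at 0 throughout) summed to 71.1, 63.4, 50.1, 75 and 50.3 CPM in parental control, 41.9, 26.5, 29.9, 39.97 and 41.1 in parental GC, 103, 102, 118, 115 and 107 in GRKO control and 57.5, 57.8, 52.1, 49.98 and 55.0 in GRKO GC tumors. Endothelial markers in all GRKO control tumors, and muscle markers in 4 of 5, were above every parental control tumor, as Gstm2 was, while endothelial markers were lower, not higher, in parental GC than in parental control tumors. Macrophage markers (11 of 12 used here, all with counts, C1qa most abundant, none at 0 throughout) summed to 5146, 5314, 4017, 4713 and 3578 CPM in parental control, 5931, 7918, 3500.03, 8380.2 and 5005 in parental GC, 8934, 7674, 5519, 6840.01 and 6399 in GRKO control and 4964, 7582, 4450.2, 4788 and 4261 in GRKO GC tumors. The group means of the macrophage sum stood in the same order as those of Gstm2. Parental GC tumors 2 and 4 were the highest of their group for both. The genes of the macrophage list did not all move alike. Of its 11 genes, the difference of the GC effects was 1.12 log2 for C1qa, 0.61 for C1qb and 0.87 for Siglec1, against −0.63 for C1qc, −0.63 for Mrc1 and −0.03 for Cd68, and edgeR called none of the list. In the macrophage sum every GRKO control tumor was above every parental control tumor, as in Gstm2. Parental GC tumors overlapped with parental control tumors in that sum, and GRKO GC tumor 2 reached into the GRKO control range.

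T cell markers (7 of 8 with counts, Cd2 most abundant, Trac at 0 throughout) summed to 193, 154, 112, 187 and 83.5 CPM in parental control, 125, 114, 67.6, 134 and 94.1 in parental GC, 252, 204, 159.7, 336 and 146 in GRKO control and 80.9, 121, 92.9, 60.1 and 55.2 in GRKO GC tumors. Erythroid markers (7 of 9 used here, all with counts, Hbb-bs most abundant, none at 0 throughout) summed to 93.0, 112, 67.7, 165 and 153, 80.8, 79.6, 64.3, 56.3 and 79.8, 201, 244, 192, 270.2 and 151 and 91.8, 35.4, 54.8, 70.4 and 46.8 CPM in the same order of groups. Adipocyte markers (8 of 8, Cfd most abundant, none at 0 throughout) summed to 179, 225, 153, 213 and 169, 174, 149.5, 181, 202 and 163, 154, 209, 172, 279 and 118 and 95.8, 103, 83.2, 102 and 77.3 CPM. These 3 lists were lower in every GRKO GC tumor than in every GRKO control tumor, as Gstm2 was. Fibroblast markers (8 of 8, Col3a1 most abundant, none at 0 throughout) summed to 6725, 7490.1, 6849, 7539.6 and 6942 CPM in parental control, 10924, 8033, 10802, 7560.3 and 10743 in parental GC, 3648, 3910.2, 4547, 6985 and 5128 in GRKO control and 9914, 8047, 11309, 7232 and 10688 in GRKO GC tumors. They were above control in every GC tumor of the same genotype, in parental tumors as Gstm2 was and in GRKO tumors the other way. Keratinocyte markers, given per tumor under Gsta4, had means of 1755 CPM in parental control and 2040 in parental GC tumors. In GRKO tumors their means were 2876 CPM with control and 1668 with GC. Their means thus moved with GC in the directions of Gstm2 and were highest in GRKO control tumors, but with overlap in both genotypes. The part of all these cell types in the Gstm2 result was not tested. In bulk samples, fewer cells of a type and less RNA per cell cannot be told apart.

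In culture, where no host cells were present, Gstm2 separated the genotypes by far more. It was 14.0, 24.3 and 16.5 CPM in parental DMSO and 15.7 and 19.7 in parental GC cultures, against 0.431, 0.980 and 0.874 in GRKO DMSO and 1.58, 2.07 and 2.94 in GRKO GC cultures, which corresponds to 8, 20 and 16 counts and to 27, 44 and 47 counts. Every GRKO culture lay under every parental culture, and the GRKO GC cultures were all above the GRKO DMSO cultures. The log2 fold change of GRKO against parental was −4.57 with DMSO (SE 0.38, edgeR BH-adjusted p = 3.12e-05) and −2.98 with GC (SE 0.36, edgeR BH-adjusted p = 0.000465), and both were called with each culture left out in turn. The GC effect within GRKO cultures was 1.54 (SE 0.37, unadjusted p = 0.00152, edgeR BH-adjusted p = 0.976). In parental cultures the GC groups overlapped with DMSO, and the difference of GC effects of −1.60 did not pass (SE 0.51, edgeR BH-adjusted p = 0.413).

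Gstm2 was thus lower in GRKO than in parental cells in culture and higher in GRKO than in parental control tumors; these contrasts come from separate fits and their difference was not tested. GRKO control tumors exceeded GRKO DMSO cultures by 5.76 log2 (SE 0.38, edgeR BH-adjusted p = 1.13e-13), and for the parental line the value was 0.10 (not called). Group means ran from 41.9 ± 7.94 in GRKO control, 34.6 ± 11 in parental GC, 21.7 ± 5.81 in GRKO GC and 19.6 ± 4.26 CPM in parental control tumors (SD, n = 5 each) to 18.3 ± 5.35 in parental DMSO and 17.7 ± 2.79 CPM in parental GC cultures. GRKO GC cultures at 2.20 ± 0.686 and GRKO DMSO cultures at 0.762 ± 0.291 CPM were the lowest, each apart from its upper neighbour, and all other neighbours overlapped.

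Gstm1, the mu-class neighbour of Gstm2 on chromosome 3, did not share this pattern. It was 19.0, 24.2, 15.9, 12.9 and 18.7 CPM in parental control, 23.5, 19.5, 21.7, 33.7 and 28.3 in parental GC, 7.50, 13.8, 17.1, 16.4 and 11 in GRKO control and 15.3, 18.7, 12.5, 14.5 and 23.0 in GRKO GC tumors. In cultures it was 111, 108 and 84.4 CPM in parental DMSO, 74.5 and 89.7 in parental GC, 73.5, 66.1 and 79.8 in GRKO DMSO and 64.2, 85.9 and 96.5 in GRKO GC. Cultures lay well above tumors, and GRKO DMSO cultures under parental DMSO cultures. GC gave log2 fold changes of 0.48 in parental and 0.39 in GRKO tumors (edgeR BH-adjusted p = 0.394 and 0.353), and GRKO against parental gave −0.48 both in control tumors and in DMSO cultures (edgeR BH-adjusted p = 0.289 and 0.124). Mean levels in order were 101 ± 14.5 in parental DMSO, 82.2 ± 16.5 in GRKO GC, 82.1 ± 10.8 in parental GC and 73.1 ± 6.85 CPM in GRKO DMSO cultures. Tumors followed with 25.3 ± 5.69 in parental GC, 18.2 ± 4.20 in parental control, 16.8 ± 4.16 in GRKO GC and 13.2 ± 3.98 CPM in GRKO control. The lowest culture group and the highest tumor group were the only neighbours that did not overlap.

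Gsta4, an alpha-class transferase known for detoxifying 4-hydroxynonenal from lipid peroxidation, varied most between tumors of 1 group when the SD is set against the group mean. Its level was 0.946, 1.45, 6.08, 0.163 and 12.8 CPM in parental control and 0.259, 0, 0.0444, 1.01 and 1.02 in parental GC tumors. In GRKO tumors it was 5.19, 7.58, 4.81, 3.59 and 2.87 with control and 0.704, 0.319, 4.47, 4.85 and 4.83 with GC. Parental control tumors 3 and 5 were high, and all parental GC tumors lay near or under 1 CPM, but parental control tumors 1 and 4 were as low as these. The GC log2 fold change in parental tumors was −3.22 (SE 1.00), which did not pass by edgeR (BH-adjusted p = 0.145) and passed by DESeq2 (−3.22, BH-adjusted p = 0.0176). In GRKO tumors it was −0.63 (SE 0.91, edgeR BH-adjusted p = 0.708), and the difference of −2.59 did not pass (SE 1.32, edgeR BH-adjusted p = 0.271).

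In cultures Gsta4 was 0.864, 0.627 and 2.81 CPM in parental DMSO, 1.13 and 1.25 in parental GC, 4.04, 2.65 and 2.29 in GRKO DMSO and 2.11, 2.59 and 1.87 in GRKO GC. GRKO cultures were above parental ones except for parental DMSO culture 3, without which the genotype difference with DMSO changed from 1.04 (edgeR BH-adjusted p = 0.240) to 1.99 and passed (edgeR BH-adjusted p = 0.0251). Mean levels ran from 4.81 ± 1.81 in GRKO control, 4.29 ± 5.30 in parental control and 3.03 ± 2.31 CPM in GRKO GC tumors to 2.99 ± 0.925 in GRKO DMSO and 2.19 ± 0.367 CPM in GRKO GC cultures. Then came parental DMSO cultures at 1.43 ± 1.20, parental GC cultures at 1.19 ± 0.0825 and parental GC tumors at 0.467 ± 0.511 CPM, the last apart from its neighbour, with overlap elsewhere.

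Among 10197 genes with a mean of at least 5 CPM, those whose log2(CPM + 1) over the 20 tumors was most like Gsta4 were Gm5416 (r = 0.939), Sprr1b (r = 0.922), which encodes a cornified envelope protein of squamous epithelium, and Lce3f (r = 0.895). With each group's mean subtracted, r was 0.913, 0.88 and 0.882. These are descriptions over tumors that share groups and a host tissue, with no p. Sprr1b was 40.9, 27.4, 73.0, 24.9 and 149 CPM in parental control, 16.0, 24.4, 26.3, 18.5 and 32.2 in parental GC, 148, 132, 101, 59.97 and 72.2 in GRKO control and 31, 23.1, 71.3, 68.4 and 69.1 in GRKO GC tumors, and had 0 counts in all 11 cultures. Parental control tumor 5 was highest for both Sprr1b and Gsta4.

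Keratinocyte markers (9 of 9 with counts, Krt14 most abundant, none at 0 throughout) summed to 1455, 1298, 1567, 1373 and 3081 CPM in parental control, 2022, 2094, 1731, 2121 and 2231 in parental GC, 3221, 3799, 3247, 2099.7 and 2013 in GRKO control and 1239, 1460.5, 1917, 2024 and 1699 in GRKO GC tumors. Neutrophil markers (7 of 8 with counts, S100a8 most abundant, Ly6g at 0 throughout) summed to 22.6, 68.6, 241, 33.8 and 1235 CPM in parental control, 14.8, 10.03, 11.4, 22.7 and 38.7 in parental GC, 424, 769, 264, 188 and 1013 in GRKO control and 96.4, 49.3, 228, 196 and 129 in GRKO GC tumors. Parental GC tumors, the lowest for Gsta4, had as a group also the lowest levels of the neutrophil list, and parental control tumor 5 was the highest parental tumor for both lists. The keratinocyte list did not follow Gsta4 in this way. Its mean in parental GC tumors, 2040 CPM, was above parental control (1755) and GRKO GC tumors (1668) and under GRKO control tumors (2876). The part of these cell types in the Gsta4 values was not tested.

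**Figure D2:**
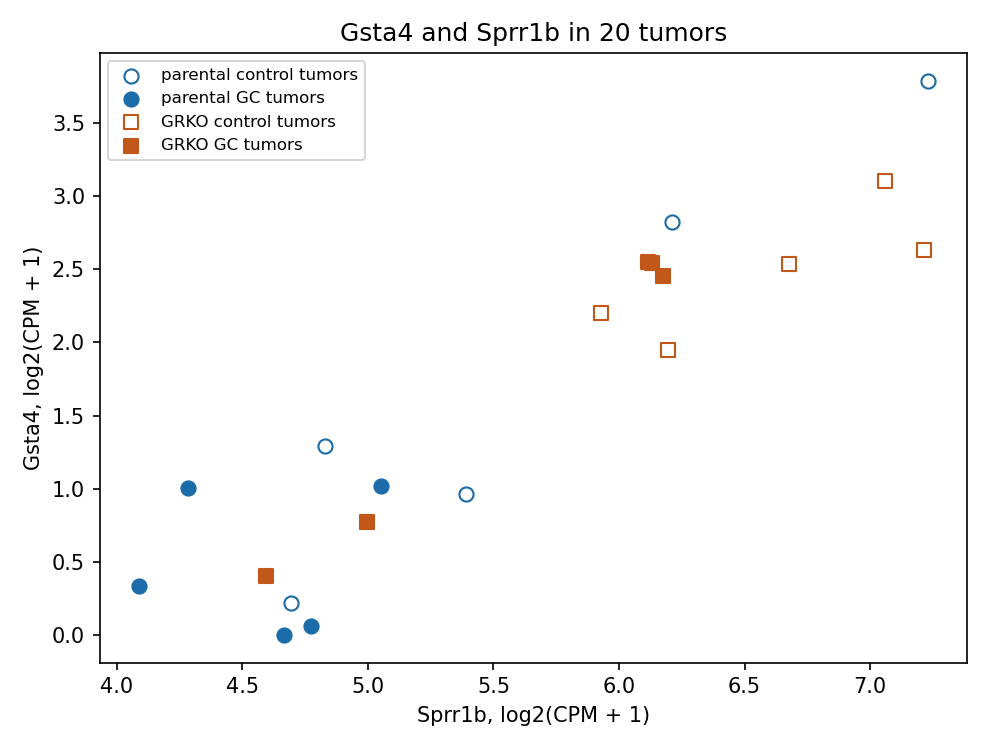
Gsta4 against Sprr1b in the 20 tumors, both as log2(CPM + 1), with 1 point per tumor, open for control and filled for GC, blue for parental and orange for GRKO. Tumors with more Sprr1b had more Gsta4 (r = 0.922), from 0 CPM of Gsta4 in parental GC tumor 2 to 12.8 CPM in parental control tumor 5.

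Nqo1, the quinone reductase that is among the most used readouts of NRF2 activity, stood higher in cultures than in tumors. It was 33.2, 24.2 and 39.8 CPM in parental DMSO and 15.8 and 20.01 in parental GC cultures, against 60.3, 51.3 and 47.9 in GRKO DMSO and 55.5, 48.4 and 44.6 in GRKO GC cultures. Parental GC cultures were under parental DMSO cultures, and all GRKO cultures were above all parental cultures. With GC, GRKO exceeded parental by 1.49 log2 (SE 0.22, edgeR BH-adjusted p = 0.00173), which was called with each culture left out in turn. With DMSO the difference was 0.70 (SE 0.19, edgeR BH-adjusted p = 0.0382).

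The DMSO call of Nqo1 was lost without parental DMSO culture 1 (0.72) or 2 (0.54), and without GRKO DMSO culture 1 (0.61), 2 (0.73) or 3 (0.77), with edgeR BH-adjusted p from 0.0645 to 0.135. The GC effect in parental cells was −0.86 (SE 0.22), which did not pass by edgeR (BH-adjusted p = 0.128) and passed by DESeq2 (−0.87, BH-adjusted p = 0.0159) and by edgeR without parental DMSO culture 2 (−1.03, BH-adjusted p = 0.0423). In GRKO cells it was −0.07, and the difference of −0.79 did not pass (edgeR BH-adjusted p = 0.477).

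In tumors Nqo1 was 6.81, 4.45, 4.83, 6.14 and 6.05 CPM in parental control, 3.99, 2.22, 5.82, 2.07 and 2.78 in parental GC, 5.34, 7.76, 5.89, 3.92 and 8.47 in GRKO control and 4.18, 6.01, 7.37, 8.57 and 4.14 in GRKO GC. All 4 groups overlapped, although 4 of 5 parental GC tumors lay under every parental control tumor. The GC log2 fold change was −0.75 in parental (SE 0.35, edgeR BH-adjusted p = 0.334) and −0.03 in GRKO tumors (edgeR BH-adjusted p = 0.971), and their difference of −0.72 did not pass (edgeR BH-adjusted p = 0.418). Mean levels in order were 53.2 ± 6.41 in GRKO DMSO, 49.5 ± 5.51 in GRKO GC, 32.4 ± 7.82 in parental DMSO and 17.9 ± 2.97 CPM in parental GC cultures. Tumors followed with 6.28 ± 1.85 in GRKO control, 6.05 ± 1.95 in GRKO GC, 5.66 ± 0.983 in parental control and 3.38 ± 1.56 CPM in parental GC. Overlap was seen between the GRKO culture groups and between neighbouring tumor groups, and not at the other 3 steps.

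Hmox1, the inducible heme oxygenase, which breaks down heme, was 6.91, 15.3 and 5.75 CPM in parental DMSO, 8.79 and 9.45 in parental GC, 22.0, 19.9 and 17.2 in GRKO DMSO and 20.2, 23.5 and 23.6 in GRKO GC cultures. All GRKO cultures were above all parental ones, and parental DMSO culture 2 was the highest of its group. The genotype difference was 1.07 with DMSO (SE 0.31, edgeR BH-adjusted p = 0.0533) and 1.33 with GC (SE 0.35, edgeR BH-adjusted p = 0.0513), just short of the threshold. DESeq2 called both (BH-adjusted p = 0.0120 and 0.00485), and so did edgeR without the filter on low counts (1.07 and 1.32, BH-adjusted p = 0.0221 and 0.0169). The edgeR fit called the first without parental DMSO culture 2 (1.64, BH-adjusted p = 0.000782) and the second without GRKO GC culture 1 (1.41, BH-adjusted p = 0.0458).

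Tumor levels of Hmox1 were 14.4, 11.4, 12.2, 6.96 and 12.6 CPM in parental control, 7.93, 15.4, 9.50, 8.95 and 7.21 in parental GC, 7.57, 7.99, 7.25, 8.81 and 14.0 in GRKO control and 5.2, 5.27, 6.97, 9.29 and 6.29 in GRKO GC. The groups overlapped, and parental GC tumor 2 and GRKO control tumor 5 stood above the rest of their groups. GC log2 fold changes were −0.23 in parental and −0.44 in GRKO tumors (edgeR BH-adjusted p = 0.781 and 0.377). Mean levels were 22.5 ± 1.92 in GRKO GC and 19.7 ± 2.43 CPM in GRKO DMSO cultures, then 11.5 ± 2.77 in parental control and 9.80 ± 3.26 in parental GC tumors and 9.32 ± 5.22 CPM in parental DMSO cultures. The lowest were 9.13 ± 2.80 in GRKO control tumors, 9.12 ± 0.468 in parental GC cultures and 6.6 ± 1.68 CPM in GRKO GC tumors. Only GRKO DMSO cultures and parental control tumors were neighbours without overlap.

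**Figure D3:**
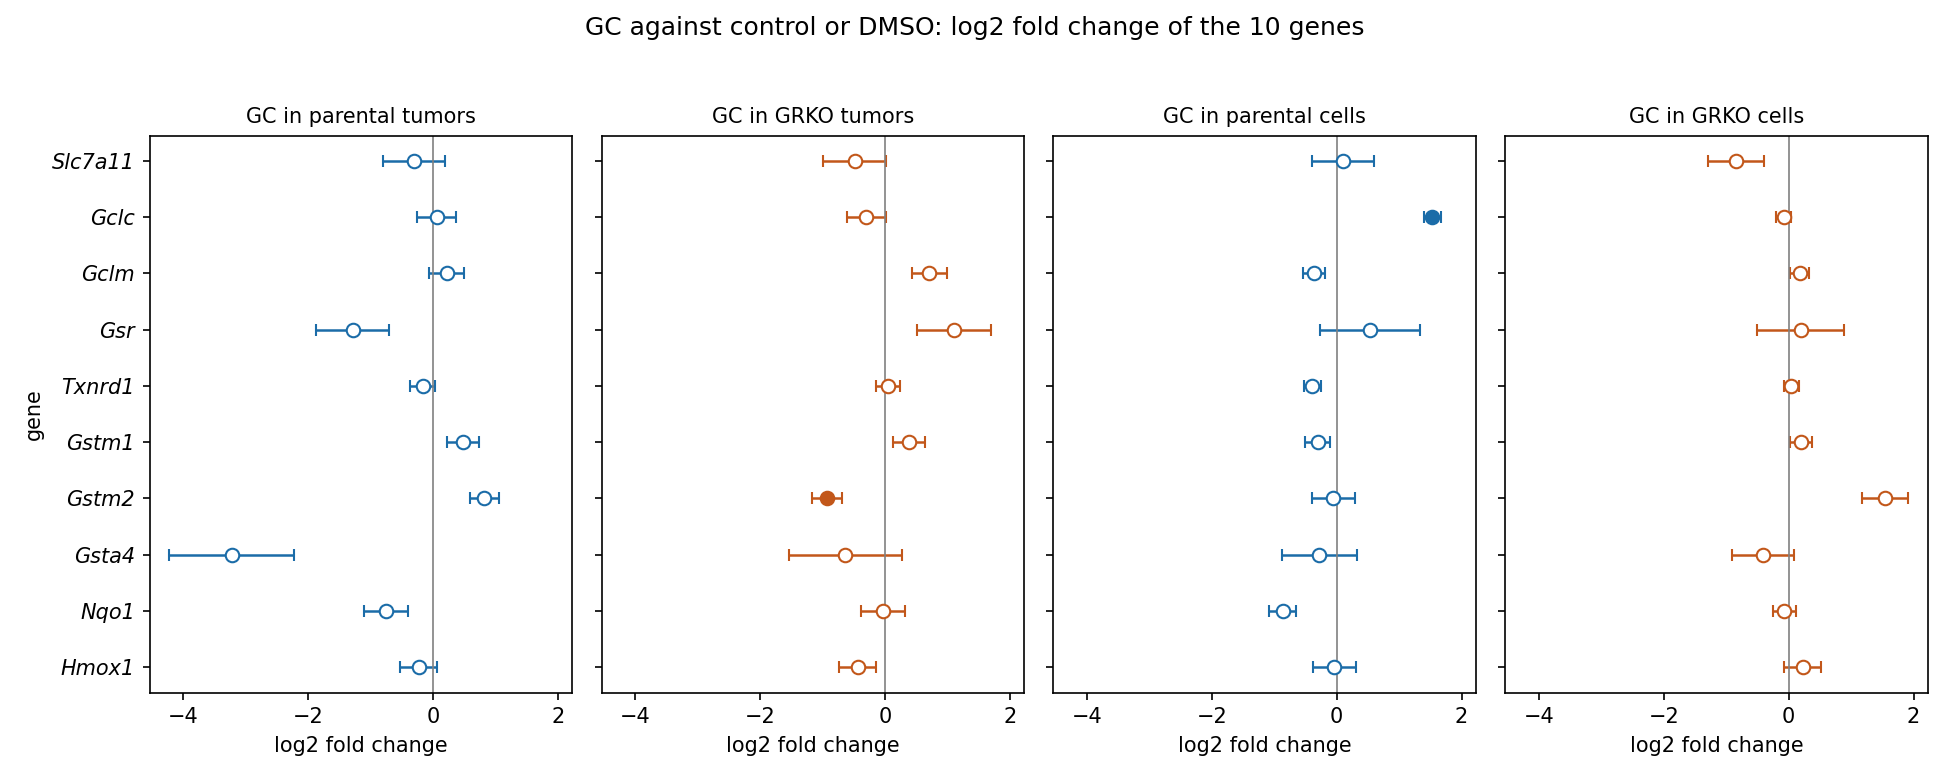
Log2 fold change with GC (horizontal axis) ± SE for the 10 members in parental tumors, GRKO tumors, parental cultures and GRKO cultures, with filled points where edgeR called the member. The called values are Gstm2 in GRKO tumors (−0.92) and Gclc in parental cultures (1.53).

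Growth in mice was set beside growth in culture for each line, in a fit of all 31 libraries. Gclm, Gstm1, Nqo1 and Txnrd1 were called lower in parental control tumors than in parental DMSO cultures, with log2 fold changes of −2.40, −2.47, −2.52 and −1.36 (edgeR BH-adjusted p = 1.85e-09, 5.79e-10, 2.69e-08 and 5.12e-07). For the GRKO line these 4 gave −2.98, −2.47, −3.08 and −1.52 (edgeR BH-adjusted p = 1.77e-11, 4.23e-10, 3.85e-10 and 4.99e-08). Gclc and Hmox1 were also called lower in GRKO control tumors, at −1.39 (SE 0.28, edgeR BH-adjusted p = 0.000129) and −1.11 (SE 0.30, edgeR BH-adjusted p = 0.00276). For the parental line Gclc was −0.62 (edgeR BH-adjusted p = 0.0753; −0.81 and 0.0240 without parental control tumor 1) and Hmox1 0.30 (edgeR BH-adjusted p = 0.446; 0.86 and 0.0441 without parental DMSO culture 2). The effect of growth was not tested for a difference between the lines. Host cells are part of tumors alone, so lower levels in the cancer cells and dilution by cells with less of the transcript cannot be told apart.

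The wider pathway was followed through 7 lists with 93 different genes: regulators of NRF2, glutathione synthesis and supply, peroxidases and glutaredoxins, other glutathione S-transferases, the thioredoxin and peroxiredoxin system, other NRF2 targets and targets of the stress factor ATF4. The edgeR fits tested 89 of them in tumors and 82 in cultures. In tumors, GC called 1 higher and 0 lower in parental (0.433% and 0.345% of all genes; median log2 fold change −0.08, against 0.00 for all genes tested; 2 by DESeq2, against 2.37% of all genes) and 2 higher and 6 lower in GRKO tumors (2.71% and 3.71% of all genes; median −0.15, against 0.05; 18 by DESeq2, against 11.2% of all genes). The difference of these effects called 0 by edgeR (median 0.04, against −0.04). At an unadjusted p under 0.05 stood 22 list genes, 24.7%, near the 20.1% of all genes, and DESeq2 called 6, against 5.13% of all genes. GRKO against parental called 2 higher and 0 lower in control tumors (1.26% and 0.986% of all genes; median 0.12, against −0.04; 7 by DESeq2, against 6.31% of all genes) and 0 in GC tumors by edgeR (median 0.13, against 0.01). In GC tumors 11 list genes, 12.4%, had an unadjusted p under 0.05, near the 11.4% of all genes, and DESeq2 called 1, against 1.82%.

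In cultures edgeR called 0 list genes for GC in parental cells (median −0.01, against 0.00 for all genes tested), 0 for GC in GRKO cells (median 0.00, against 0.02) and 0 for the difference (median −0.02, against −0.03). At an unadjusted p under 0.05 these were 8, 1 and 8 list genes, or 9.76%, 1.22% and 9.76%, near the 8.48%, 1.89% and 8.58% of all genes. DESeq2 called 0 list genes in each, against 2.0%, 0.0% and 1.02% of all genes. Between genotypes the unadjusted shares of list genes were 43.9% with DMSO and 25.6% with GC, against 24.2% and 17.7% of all genes. For tumors against cultures they were 57.3% in the parental and 71.9% in the GRKO line, against 54.8% and 61.5%. GRKO against parental called 2 higher and 9 lower with DMSO (2.18% and 6.04% of all genes; median −0.08, against 0.01; 14 by DESeq2, against 11.4% of all genes) and 1 higher and 5 lower with GC (1.76% and 3.78% of all genes; median 0.06, against 0.02; 8 by DESeq2, against 7.86% of all genes). Tumors against cultures called 15 higher and 31 lower for the parental line (30.4% and 16.2% of all genes; median −0.39, against 0.37; 47 by DESeq2, against 48.4% of all genes) and 25 higher and 32 lower for the GRKO line (34.2% and 20.6% of all genes; median −0.40, against 0.33; 60 by DESeq2, against 56.0% of all genes). Among these, ATF4 targets gave 0 higher and 9 lower of 12 for the parental and 2 higher and 7 lower for the GRKO line, and the other S-transferases 6 higher and 1 lower, and 8 higher and 4 lower, of 17.

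Of the list genes called with GC in GRKO tumors, Cul3, the ubiquitin ligase scaffold that works with KEAP1 on NRF2, was 24.2, 21.5, 25.9, 43.2 and 27.7 CPM in GRKO control and 65.6, 41.5, 73.9, 50.9 and 76.7 in GRKO GC tumors. The groups overlapped only through GRKO control tumor 4 and GRKO GC tumor 2. Cul3 rose by 1.16 log2 (SE 0.25, edgeR BH-adjusted p = 0.00806) and was called with each of the 10 tumors left out in turn. In parental tumors Cul3 was 35.8, 48.9, 49.2, 43.0 and 50.7 CPM with control and 60.1, 26.3, 59.9, 29.5 and 57.7 with GC. The summed fibroblast markers were likewise higher in every GRKO GC than in every GRKO control tumor. Tumors 2 and 4 of both GC groups were the lowest of their group for Cul3 and for that sum, and GRKO control tumor 4 the highest of its group for both. In culture the Cul3 means were 59.5 CPM in parental DMSO, 80.7 in parental GC, 87.0 in GRKO DMSO and 86.7 in GRKO GC. The means of GRKO control and GRKO GC tumors were 28.5 and 61.7 CPM, both under those of the GRKO cultures. The part of fibroblasts or of the cancer cells in the Cul3 result was not tested.

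Only the 5 called list genes with the largest change with GC in GRKO tumors are named here, of 2 called higher and 6 lower. Lower among these 5 were Gpx2, a glutathione peroxidase of epithelia (−1.88, SE 0.50), and Ddit3, the stress factor CHOP (−1.13, SE 0.29). So were Ggct, which acts in glutathione breakdown (−0.90), and Sqstm1, the autophagy receptor p62 that binds KEAP1 (−0.81). Their edgeR BH-adjusted p were 0.0278, 0.0222, 0.0246 and 0.0215. Gpx2 did not pass without GRKO control tumor 1 (−1.77), 2 (−1.85) or 3 (−1.73) or GRKO GC tumor 1 (−1.77) or 3 (−1.80). Ddit3 did not pass without GRKO control tumor 2 (−0.94) or GRKO GC tumor 3 (−1.04) or 5 (−1.09). Ggct did not pass without GRKO control tumor 1 (−0.71) or GRKO GC tumor 1 (−0.83), 3 (−0.94) or 5 (−0.85). Sqstm1 did not pass without GRKO control tumor 1 (−0.61) or 2 (−0.78) or GRKO GC tumor 3 (−0.77) or 5 (−0.72). With GRKO GC tumors 2 and 4 left out, Ddit3, Ggct, Sqstm1 and Cul3 passed, and Gpx2 did not (−1.87, edgeR BH-adjusted p = 0.0581).

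Gpx2 had 0 counts in all 11 cultures, whereas Ddit3, Ggct and Sqstm1 had counts in each culture. The T cell, erythroid and adipocyte lists were lower and the fibroblast list higher in every GRKO GC than in every GRKO control tumor. The endothelial list was lower in the same way, while the keratinocyte list had a lower mean in GRKO GC tumors with some overlap. The part of these cell types in the values of Gpx2, Ddit3, Ggct and Sqstm1 was not tested.

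Ddit3 and Pgd, the latter a pentose phosphate enzyme that makes NADPH, were the list genes higher in GRKO than in parental control tumors. Ddit3 was 34.1, 33.4, 18.6, 27.6 and 31.9 CPM in parental control, 21.9, 47.6, 22.3, 59.1 and 25.2 in parental GC, 64.5, 106, 75.5, 45.6 and 63.9 in GRKO control and 31.6, 32.4, 24.2, 43.6 and 27.4 in GRKO GC tumors. Pgd was 111, 141, 123, 126 and 155 CPM in parental control, 116, 119, 122, 137 and 130.2 in parental GC, 259.6, 202, 186, 189 and 227 in GRKO control and 132, 136, 123, 160.3 and 123 in GRKO GC tumors. For both, GRKO control tumors lay above all parental control and all GRKO GC tumors, while parental GC tumors 2 and 4 reached into the GRKO control range for Ddit3. The log2 fold changes were 1.28 for Ddit3 (SE 0.29, edgeR BH-adjusted p = 0.0281) and 0.69 for Pgd (SE 0.16, edgeR BH-adjusted p = 0.0288). Ddit3 did not pass without parental control tumor 2 (1.33), 3 (1.16) or 4 (1.26) or GRKO control tumor 1 (1.31) or 2 (1.08). Pgd did not pass without parental control tumor 1 (0.63), 2 (0.70), 3 (0.66) or 4 (0.67) or GRKO control tumor 1 (0.60), 2 (0.70) or 5 (0.66). The summed endothelial and the summed macrophage markers were also higher in every GRKO control than in every parental control tumor. The erythroid, T cell, skeletal muscle, keratinocyte and neutrophil sums had higher means in GRKO control tumors, with overlap. The fibroblast sum of 4 of the 5 GRKO control tumors lay under every parental control tumor. Culture means of Ddit3 were 61.4 CPM in parental DMSO, 51.0 in parental GC, 41.1 in GRKO DMSO and 43.7 in GRKO GC. For Pgd they were 456, 392, 490 and 554 CPM in the same order, above all tumor levels. With DMSO, GRKO against parental cultures gave −0.59 log2 for Ddit3 and 0.09 for Pgd, neither called (edgeR BH-adjusted p = 0.125 and 0.703). The part of these cell types or of the cancer cells in the values of Ddit3 and Pgd was not tested.

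With GC in parental tumors the called list gene was Gpx3, the secreted glutathione peroxidase, at 200.2, 147, 175, 189 and 218 CPM with control and 264, 569, 256, 331 and 295 with GC. All GC tumors were above all control tumors, and the log2 fold change was 0.89 (SE 0.21, edgeR BH-adjusted p = 0.0470). It did not pass with any 1 of the 5 parental control tumors left out (0.91, 0.81, 0.87, 0.89 and 0.96) or without parental GC tumor 2 (0.61), 4 (0.90) or 5 (0.94), and with parental GC tumors 2 and 4 both left out it was 0.52 (edgeR BH-adjusted p = 0.472). The summed fibroblast markers were likewise higher in every parental GC tumor than in every parental control tumor. Within the parental GC group, tumors 2 and 4 were the highest for Gpx3 and for the summed macrophage markers, and the lowest for the fibroblast sum. Gpx3 was 2.13, 1.13 and 1.50 CPM in parental DMSO and 1.91 and 2.82 in parental GC cultures, far under its tumor levels. The part of fibroblasts or other host cells in the Gpx3 result was not tested.

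Among the list genes named here as called lower in GRKO than in parental cultures, 4 had at most 2 counts in any GRKO culture. Gpx7 had 0, 1 and 0 counts in GRKO DMSO and 0 in each GRKO GC culture, against 278, 354 and 223 in parental DMSO cultures. Gstm4 and Gstk1 had 0 counts in each GRKO DMSO culture, against 36, 24 and 21 and against 31, 11 and 25 in parental DMSO cultures. Gpx3 had 1, 1 and 0 counts in GRKO DMSO cultures, against 32, 18 and 25. All 4 were called lower in GRKO cultures by edgeR, with DMSO and with GC, and no fold is given because of these counts. With GC, Gstm4 did not pass without parental GC culture 2 (edgeR BH-adjusted p = 0.0513), and Gstk1 not without parental GC culture 1 or 2 or GRKO GC culture 2 or 3. In GRKO control tumors, which hold host cells, Gpx7 was 8.66, 21.0, 12.8, 12.8 and 18.3 CPM.

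Oplah, which recycles oxoproline from glutathione breakdown, was lower in GRKO than in parental DMSO cultures (−3.0, SE 0.64, edgeR BH-adjusted p = 0.0127), but not past the threshold without GRKO DMSO culture 1 (−2.66, edgeR BH-adjusted p = 0.0571). Gsto2, an omega-class transferase, was 1.33, 1.00 and 1.62 CPM in parental DMSO and 1.49 and 1.48 in parental GC cultures, against 5.44, 5.64 and 5.30 in GRKO DMSO and 5.15, 4.62 and 4.12 in GRKO GC cultures, without overlap. It was higher in GRKO cultures with DMSO, a comparison added after its values were seen (2.04, SE 0.28, edgeR BH-adjusted p = 0.000876) and with GC (1.67, SE 0.31, edgeR BH-adjusted p = 0.00791), the latter not past the threshold without parental GC culture 1 (1.67, edgeR BH-adjusted p = 0.0779) or 2 (1.66, edgeR BH-adjusted p = 0.0839).

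Genes most like the other members over the 20 tumors were, by Pearson's r of log2(CPM + 1), Rps12 for Slc7a11 (0.867), Gmeb1 for Gclc (0.811), Pola1 for Gclm (0.801), Esrra for Gsr (0.84) and Tbrg1 for Txnrd1 (0.79). They were Greb1 for Gstm1 (0.809), Polb for Gstm2 (0.874), Gfod1 for Nqo1 (0.804) and Dock5 for Hmox1 (0.755). Next for Gstm2 came Bysl (0.871) and Arhgef5 (0.866). With each group's mean subtracted, r for the 3 genes most like Gstm2 was 0.704, 0.627 and 0.621. Polb was 26.4, 40.5, 28.3, 38.0 and 43.5 CPM in parental control, 39.3, 65.6, 47.4, 42.1 and 41.3 in parental GC, 80.6, 48.4, 53.4, 68.7 and 72.0 in GRKO control and 42.2, 45.7, 29.9, 37.2 and 27.1 in GRKO GC tumors, high in GRKO control tumors as Gstm2 was. Each r is among the 3 highest of 10197 for its member and describes these tumors alone.

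The members lie on 4 chromosomes of GRCm38. On chromosome 3, all by GENCODE M21 positions, are Gstm2 (chr3:107981702-107986453) and Gstm1 (chr3:108012255-108017973), both on the minus strand, Gclm (chr3:122245557-122270732, plus) and Slc7a11 (chr3:49892526-50443614, minus). Gclc (chr9:77754535-77794485) and Gsta4 (chr9:78182774-78209349) lie on the plus strand of chromosome 9, Gsr (chr8:33652523-33698163, plus), Hmox1 (chr8:75093621-75100589, plus) and Nqo1 (chr8:107388225-107403206, minus) on chromosome 8, and Txnrd1 (chr10:82833951-82897712, plus) on chromosome 10. Counting of 3′ reads depends on what else lies there, and the strand setting of the authors' counting is not given in the sources used here. Of all 50-base stretches in the last 500 bases of Gstm1, 23.0% also occur in another gene, among them Gstm3 and pseudogenes, and for Gstm2 10.1% occur in pseudogenes, so both are uncertain to that degree; for the other 8 members the share was 0. Gclm overlaps Gm17494 on the opposite strand, which covers the 3′ end of Gclm and had 0 counts. It also overlaps Gm6061, with 112 counts against 16309, and Gsr contains the small nucleolar RNA Gm24727, with 433 counts against 3250. Txnrd1 and Slc7a11 overlap 3 and 5 other annotated genes, none of which is among the genes counted or covers the 3′ end of its member.

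Promoters were read for the letters TGACNNNGC, the core of the antioxidant response element that NRF2 binds with small MAF proteins, on both strands. RefSeq windows of 300 bases on GRCm38.p6 were used for 6 of the 10 members (9 windows), and none for Gclc, Gsr, Gsta4 and Hmox1. The letters were found in 2 of the 9 windows, and in 12.4% of all 32851 windows. They are shown because Gclm and Txnrd1 were the members that stood higher in GRKO than in parental GC cultures and held the match, which is a description and not a site. Nqo1, also higher there, had no match in its window, which says only that these letters are not in it. The 250 bases before the start of Gclm (chr3:122245307-122245556, plus strand) and before an annotated start of Txnrd1 (chr10:82858956-82859205, plus strand) are given 5′ to 3′, with the match, which reads TGACNNNGC on the opposite strand, in capitals.
Gclm: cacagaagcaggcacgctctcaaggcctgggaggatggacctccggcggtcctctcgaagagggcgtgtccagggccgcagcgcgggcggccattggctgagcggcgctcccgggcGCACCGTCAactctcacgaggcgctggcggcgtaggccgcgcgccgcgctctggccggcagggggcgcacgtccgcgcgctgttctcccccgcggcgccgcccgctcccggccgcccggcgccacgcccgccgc
Txnrd1: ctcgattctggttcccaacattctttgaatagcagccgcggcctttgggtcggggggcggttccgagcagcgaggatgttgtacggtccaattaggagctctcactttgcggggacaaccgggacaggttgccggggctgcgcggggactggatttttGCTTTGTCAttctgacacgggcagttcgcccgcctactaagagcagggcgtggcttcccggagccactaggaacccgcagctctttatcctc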

How the data were processed

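RNA of 20 tumors and 11 cultures was sequenced from its 3′ ends (QuantSeq). The authors trimmed the reads, aligned them with STAR to GRCm38, counted them per Ensembl gene with featureCounts, and deposited raw whole-number counts per gene. The version and strand setting of featureCounts are not given in the sources used here, and 0 columns of the table were left unmapped. Groups and replicate numbers came from the labels. Tumors are from separate mice; the cultures carry 1 shared date in their library names and nothing more says how separate they were, so their p-values measure the spread between these cultures, which may be technical. No pair of replicates agreed within sampling noise.

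The counts were tested with edgeR 4.0.16 in R 4.3.3 (TMM factors, quasi-likelihood test, BH adjustment over all genes tested), with the 20 tumors fitted together, the 11 cultures together, and all 31 libraries together for tumors against cultures. A gene needed 0.5 CPM in 3 libraries of the fit. Called means a BH-adjusted p under 0.05 and a fold of at least 1.5. Levels are CPM with TMM factors over all 31 libraries. Named are the 10 members, Nr3c1 and Tsc22d3, up to 5 called genes of the wider lists per comparison, Gsto2 with DMSO, added after its values were seen, and the 3 genes most like a member. Members and lists were chosen with earlier results of these data known. Alternatives were DESeq2 1.42.0, its size factors in edgeR, no filter, no minimum fold change, a replicate block and leaving out each library. Those for genes of the wider lists, and fits without parental or GRKO GC tumors 2 and 4, were chosen after seeing the data. Python 3.11.15, pandas 2.3.3, numpy 2.4.6 and matplotlib 3.10.9 made summaries and plots. The tests were also run on simulated counts with log2 fold changes of 2 in size, which does not check smaller effects or tumors that stand apart from their group.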

Additional observations from a re-analysis of the deposited data

Results flagged for a closer look

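Hmox1 was 15.4 CPM in parental GC tumor 2 and 14.0 CPM in GRKO control tumor 5, each the highest of its group of 5. The gap to the next tumor was 0.721 and 0.769 of the group's whole range, above the 95% critical value of Dixon's test (0.71). Of the 40 groups of tumors tested for the 10 members these were the 2 that passed, and chance alone marks about 1 in 20 groups.

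The GC effect differed between genotypes for 1 member in tumors and 1 in cultures, by edgeR's quasi-likelihood test of the difference itself. For Gstm2 in tumors the difference, parental minus GRKO, was 1.75 on the log2 scale (BH-adjusted p = 0.0330, passing without 7 of the 20 tumors in turn, and 1.37 with BH-adjusted p = 0.176 with parental GC tumors 2 and 4 left out). For Gclc in cultures it was 1.61 (BH-adjusted p = 0.00275, passing without each of the 11 cultures in turn).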

How the results depend on the processing

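Of 1730 log2 fold changes of members under the alternatives, 120 of them from calls with no minimum fold change, 1680 stayed on the same side of the threshold, 16 passed it only under the alternative, 34 passed it only in the fit as reported, and 0 called values reversed. Among values that were not called, 76 in 30 of the results had the opposite sign under an alternative. DESeq2 called 2 members instead of 0 for GC in parental tumors (Gstm2 and Gsta4) and 2 instead of 1 for GC in parental cultures (Gclc and Nqo1). Leaving out 1 library at a time, the number of members called ran from 0 to 0 for GC in parental tumors, 0 to 2 for GC in GRKO tumors, 0 to 1 for the difference of these effects, 0 to 1 for GRKO against parental control tumors and 0 to 0 for GRKO against parental GC tumors. In cultures it ran from 1 to 2 for GC in parental cells, 0 to 0 for GC in GRKO cells, 1 to 1 for the difference, 2 to 4 for GRKO against parental with DMSO and 2 to 6 with GC. For tumors against cultures it ran from 4 to 5 in the parental and 7 to 8 in the GRKO line. In fits chosen after seeing the data, leaving out parental GC tumors 2 and 4 gave 0 members instead of 1 for the difference of GC effects in tumors, and leaving out GRKO GC tumors 2 and 4 changed no count of members called. Calls with no minimum fold change gave the same members in all 12 comparisons. The cause of these changes was not tested, and the fits of left-out tumors hold fewer samples.

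The number of all genes called moved more. By DESeq2 against edgeR it was 378 against 124 for GC in parental tumors, 1779 against 1022 for GC in GRKO tumors, 817 against 31 for their difference, 1004 against 358 for GRKO against parental control tumors and 289 against 101 for GC tumors. In cultures it was 251 against 110 for GC in parental cells and 128 against 37 for the difference. Without the filter on low counts it was 49 for the difference in tumors and 64 for that in cultures. With parental GC tumors 2 and 4 left out it was 32 for GC in parental tumors, 0 for the difference and 25 for genotype in GC tumors, and with GRKO GC tumors 2 and 4 left out 1538 for GC in GRKO tumors and 634 for the difference. Leaving out 1 library at a time gave 60 to 178 genes for GC in parental tumors, 303 to 2411 for GC in GRKO tumors, 0 to 1284 for their difference, 61 to 1762 for genotype in control tumors and 40 to 114 in GC tumors. In cultures the ranges were 31 to 78, 0 to 0, 17 to 43, 594 to 916 and 322 to 842, in the same order, and for tumors against cultures 6438 to 7460 and 7680 to 9266.

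Replicate numbers were shared between groups, so each comparison within tumors or cultures was also fitted with a replicate block. The numbers do not pair the samples: same-numbered libraries had a mean correlation of deviations from their group means of 0.0581 over 30 pairs in tumors (−0.546 to 0.415) and 0.0199 over 15 pairs in cultures (−0.55 to 0.618). With the replicate block the number of members called was 0, 1, 1, 1 and 0 in the 5 tumor comparisons and 1, 0, 1, 3 and 6 in the 5 culture comparisons. Genes called with the block numbered 144 for the difference in tumors, 160 for genotype in GC tumors and 63 for GC in parental cultures. Hmox1 passed with the block for genotype in both culture conditions (1.14 and 1.45 log2, edgeR BH-adjusted p = 0.0451 and 0.0468), and Nqo1 with DMSO did not (0.71, edgeR BH-adjusted p = 0.0670). Among genes of the wider lists, Gpx3 with GC in parental tumors (0.84, edgeR BH-adjusted p = 0.0617), Gpx2 with GC in GRKO tumors (−1.85, edgeR BH-adjusted p = 0.0541) and Gstk1 with GC between the cultures (edgeR BH-adjusted p = 0.0739) did not pass with the block.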
